A study of Mus musculus with 16 samples.

Results

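The effect of angiotensin II (AngII) given alone on the left ventricle was taken from 8 of the 16 arrays of the series, the 4 titled as AngII against the 4 titled as control. All mice were C57BL6 males of 12 weeks at random assignment, with no allele or transgene named. The combined treatment was the study's heart failure model, and AngII alone was there to show the peptide's own effect. AngII mice received the peptide at 0.7 mg/kg/day for 4 weeks from an osmotic pump under the skin, and control mice are described only as controls. The other 8 arrays are 4 from mice given both L-NAME and AngII and 4 from mice given L-NAME without AngII. L-NAME blocks the enzymes that make nitric oxide. Both of these groups received it at 0.3 mg/ml in water with 1% NaCl for 5 weeks. The combined group received AngII at 0.7 mg/kg/day for 4 weeks. The labels do not say whether AngII or control mice drank salt, whether control mice carried a pump, or whether the 4 samples of a group came from separate mice. The p-values therefore measure the spread between these samples, which may be technical.

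AngII is the active peptide of the renin-angiotensin system. It constricts arteries, raises blood pressure and releases aldosterone through the type 1 receptor, which couples to the Gq protein. In the heart, lasting pressure load and receptor signalling are known for cardiomyocyte hypertrophy, return of fetal genes such as skeletal alpha-actin and the natriuretic peptides, and deposition of matrix by fibroblasts.

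Levels are log2 intensities from Illumina BeadChips, and they span 5.78 to 15.02 with a median of 6.90 on every array. A probe was held to be above background when it exceeded 7.13, and 9118 genes had such a probe on at least 4 arrays. The heart muscle markers Myl2, Myl3, Myh6, Tnni3, Actc1 and Mb averaged 14.20 to 14.25 on AngII arrays and 14.24 to 14.38 on control arrays. These arrays thus carried heart muscle RNA, and this mean does not tell ventricle from atrium. The atrial markers Myl4, Myl7 and Sln averaged 6.94 to 7.73 on AngII arrays, against 7.04 to 7.53 on control arrays 1 to 3 and 9.78 on control array 4. L-NAME+AngII array 4, which enters the comparison with control only through the shared estimate of the spread, stood apart, with a median correlation of 0.941 with its group where the other 15 arrays had 0.968 to 0.983. In tissue samples, fewer cells of a type and less RNA per cell cannot be told apart.

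After 4 weeks of AngII alone, differences from control were mostly small. Over all genes 4640 of 9118 differences were positive and 4478 negative. Of the gene lists described below, acute-phase genes (11 of 12), matrix (36 of 46), glycolysis (19 of 25) and steroid targets (16 of 21) had mostly positive ones. Smooth muscle and pericyte markers (11 of 16) and the hypertrophy programme (14 of 22) had a smaller excess of positive ones. Complex I (33 of 36), erythroid markers (6 of 6), macrophage markers (17 of 20) and cytokines and chemokines (21 of 25) had mostly negative differences. So had the interferon response (28 of 34), cytosolic ribosomal proteins (43 of 51), complexes II to V (39 of 47) and the mitochondrial ribosome (50 of 65). No gene passed limma's test over all genes at an adjusted p under 0.05 (0 of 9118, 0%), and 12 genes shared the smallest adjusted p, 0.0514. At an unadjusted p under 0.05 there were 1314 genes (14.4%), 645 higher with AngII (7.07%) and 669 lower (7.34%). In 1037 genes (11.4%) the 4 AngII arrays did not overlap the 4 control arrays, 509 higher (5.58%) and 528 lower (5.79%). Below, list members counted as higher or lower are those at that unadjusted p unless another test is named, to be read against 14.4%. The lists were chosen with earlier results of these data known, so their shares describe the lists and do not test them. The median size of the log2 difference was 0.17, and 20 genes differed by 1 or more.

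The count near the threshold moved with the model of the spread. With the replicate number of the labels as a block, 56 genes passed (0.614%), 27 higher (0.296%) and 29 lower (0.318%) with AngII, by 0.45 to 1.12 in size on the log2 scale. Without L-NAME+AngII array 4 and with no block, 137 passed (1.5%), 86 higher (0.943%) and 51 lower (0.559%). A fit of only the 8 AngII and control arrays called 0, with 1432 genes at an unadjusted p under 0.05, and 0 with the block as well, with 1688. With the block, leaving out any 1 control array, AngII array 1 or 2, or L-NAME+AngII array 1 also gave 0, leaving out any other 1 array but L-NAME+AngII array 4 gave 1 to 27, and leaving out that array gave 289. Where a gene is said below to have passed with the block, the adjusted p is from the block fit of all 16 arrays.

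**Figure D1:**
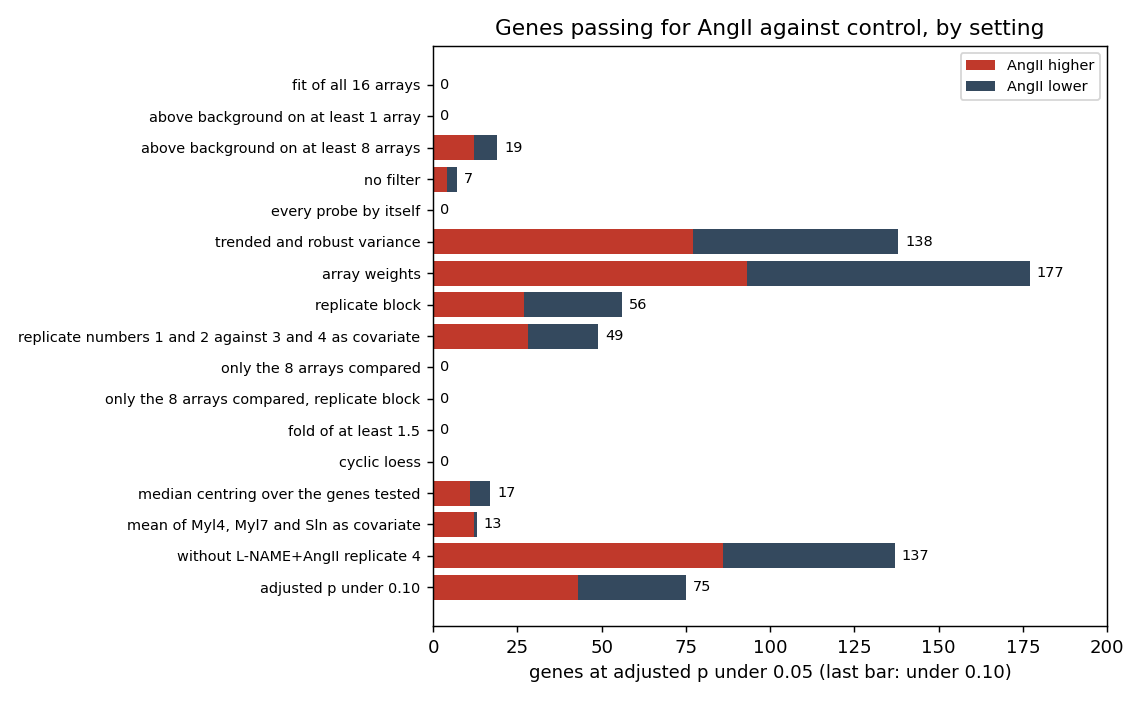
Genes at an adjusted p under 0.05 for AngII against control (horizontal axis, number of genes, or of probes where every probe was tested by itself), split into AngII higher and AngII lower, under each setting (vertical axis); the last bar uses 0.10. The fit of all 16 arrays gave 0, the replicate block 56, a trended and robust variance 138, array weights 177, and leaving out L-NAME+AngII array 4 gave 137.

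The 10 leading genes on the higher side were Syt12, Bag3, Uck2, Slc41a3, Acss2, Xirp1, Krr1, Atp6v0a1, Myot and Rrp12, with adjusted p from 0.0514 to 0.055. All 10 passed with the block (adjusted p 0.0232 to 0.043). Xirp1, a Xin-repeat protein that binds actin at the intercalated disc, had log2 levels of 12.23, 11.67, 11.81 and 12.08 on AngII arrays 1 to 4, against 10.98, 10.86, 10.68 and 10.79 on control arrays 1 to 4. Every AngII array lay above every control array, and the difference was 1.12 ± 0.21 (SE), a 2.18-fold higher level. Bag3, a co-chaperone that maintains the Z-disc, had 14.53, 14.55, 14.57 and 14.72 on AngII arrays and 14.06, 14.03, 13.83 and 13.85 on control arrays, a difference of 0.65 ± 0.11. Myot, which encodes the Z-disc protein myotilin, had 10.06, 10.02, 10.25 and 9.96 on AngII arrays and 9.22, 9.54, 8.82 and 9.01 on control arrays, a difference of 0.93 ± 0.18. The groups of these muscle genes did not overlap, which was part of how the 10 were chosen.

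The other leading genes on that side serve metabolism, transport and ribosome assembly. Acss2, which makes acetyl-CoA from acetate outside mitochondria, averaged 12.04 ± 0.11 on AngII arrays and 11.35 ± 0.19 on control arrays (SD, n = 4 each). Uck2, a kinase that salvages uridine and cytidine, averaged 13.002 ± 0.07 on AngII arrays and 12.45 ± 0.08 on control arrays, and its further probes differed by 0.61 and 0.80. Rrp12 and Krr1, which take part in ribosome assembly, differed by 0.85 and 0.62. For Krr1 the reported probe stands alone, since its other 2 probes gave -0.21 and -0.33. Slc41a3, of a magnesium transporter family, differed by 0.55 with further probes at 0.41 and 0.03. Atp6v0a1, a subunit of the proton pump of lysosomes, differed by 0.64 with a further probe at 0.08. Syt12, a synaptotagmin, was above background on all 4 AngII arrays (7.81, 7.67, 8.10 and 7.87) and on none of the control arrays (6.92, 7.01, 6.83 and 7.08), which makes it at least 1.67-fold higher.

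**Figure D2:**
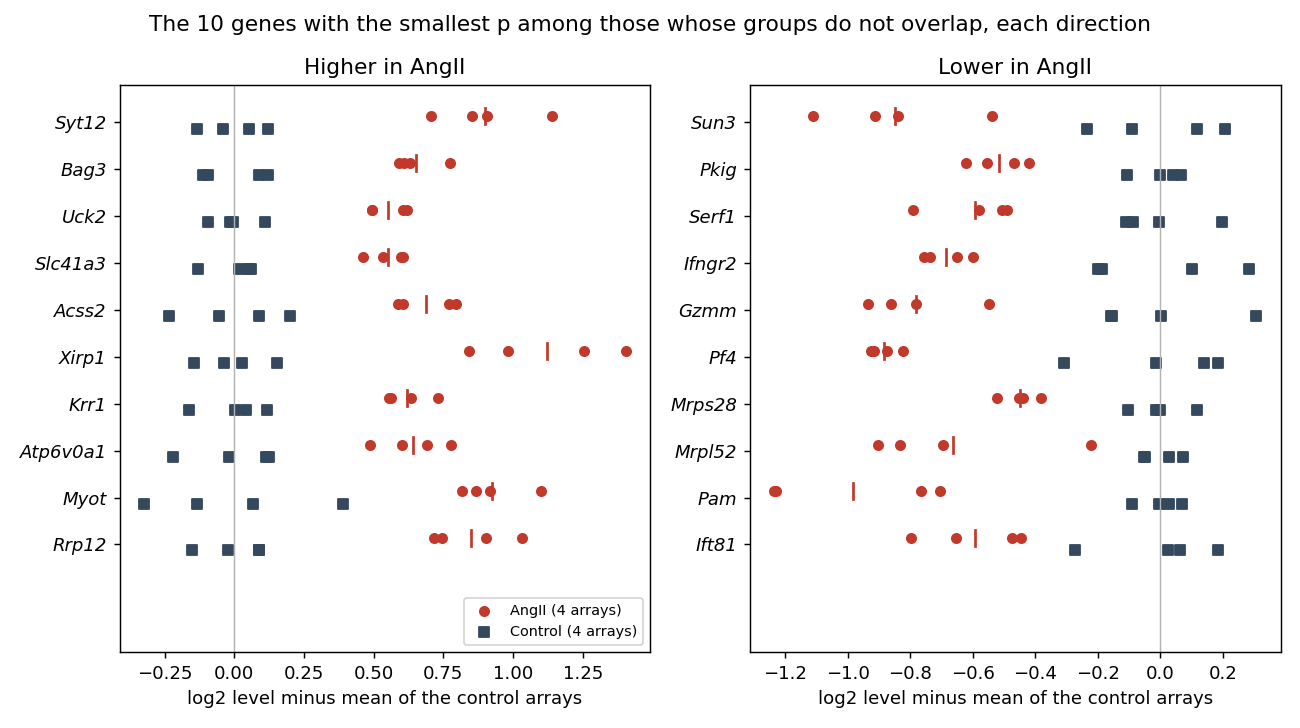
Log2 level minus the mean of the control arrays (horizontal axes) for the 10 leading genes in each direction (vertical axes); circles are the 4 AngII arrays with their mean as a short line, squares the 4 control arrays. Xirp1 lies farthest to the right, with a mean difference of 1.12, and Pam farthest to the left, with -0.98; groups do not overlap because the genes were chosen so.

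On the lower side the leading genes were Sun3, Pkig, Serf1, Ifngr2, Gzmm, Pf4, Mrps28, Mrpl52, Pam and Ift81, with adjusted p from 0.0514 to 0.0846. All but Pam passed with the block (adjusted p 0.0232 to 0.0436 for those 9, and 0.0561 for Pam). Pf4, platelet factor 4, a chemokine of platelets, had 10.24, 10.14, 10.18 and 10.13 on AngII arrays and 11.04, 11.24, 10.75 and 11.20 on control arrays, a difference of -0.88 ± 0.17. Ifngr2, a chain of the interferon-gamma receptor, had 10.67, 10.83, 10.78 and 10.69 on AngII arrays and 11.23, 11.24, 11.53 and 11.71 on control arrays, with a difference of -0.69 and further probes at -0.66 and -0.89. Gzmm, a granzyme of natural killer and T cells, had 9.27, 9.66, 9.42 and 9.34 on AngII arrays and 10.05, 10.21, 10.05 and 10.51 on control arrays, a difference of -0.78 ± 0.15. Pf4 and Gzmm are genes of blood or immune cells, and Ifngr2 encodes a receptor for an immune signal. Of other T and natural killer cell markers, Cd3e, Gzma, Gzmb and Klrd1 were above background on 0 of the 16 arrays. Cd3d, Cd3g and Nkg7 were above it on 3 arrays each. Erythroid markers averaged 10.1 to 10.4 on AngII arrays and 10.6 to 11.04 on control arrays. The part of blood content in the Pf4, Ifngr2 and Gzmm values was not tested.

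Pam, the enzyme that amidates peptide hormones and is abundant in atrial granules, had 8.04, 7.57, 8.11 and 7.58 on AngII arrays and 8.72, 8.81, 8.88 and 8.84 on control arrays. Control array 4 carried atrial markers, and the part of atrial content in the Pam values was not tested. Pkig, an inhibitor of protein kinase A, differed by -0.52, with further probes at -0.48 and -0.51. Mrps28 and Mrpl52, proteins of the mitochondrial ribosome, differed by -0.45 and -0.66. Ift81, of the transport system of cilia, differed by -0.59 with further probes at -0.72 and -0.57, and Serf1 by -0.59. Sun3, a SUN-domain protein, was below background on all 4 AngII arrays (7.05, 6.47, 6.75 and 6.67) and above it on all 4 control arrays (7.79, 7.70, 7.35 and 7.49), at least 1.38-fold lower.

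Of the other genes that passed with the block, the following were chosen after their values were seen. Irs2, an insulin receptor substrate, had 10.26, 9.97, 10.36 and 10.10 on AngII arrays and 9.37, 8.70, 9.34 and 8.89 on control arrays, a 2.14-fold higher level without overlap (block adjusted p = 0.0232). The difference was 1.08 over arrays 1 and 2 and 1.11 over arrays 3 and 4. Tmem43, a nuclear envelope protein, differed by 0.63 (block adjusted p = 0.0436), with a further probe at 0.56. Hbegf, a membrane-bound growth factor of the EGF family, had 10.36, 10.06, 11.16 and 10.59 on AngII arrays and 9.79, 9.50, 10.19 and 9.75 on control arrays (block adjusted p = 0.0232). Its groups overlapped, and each AngII array lay above the control array of the same number.

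The hypertrophy and fetal programme held 22 tested genes, 6 higher and 1 lower at an unadjusted p under 0.05, with a median difference of 0.12 where all genes tested had 0.0056. Differences in the list ran from -0.89 to 1.12, 14 of them positive and 8 negative. The 6 higher at that p were Xirp1, Acta1, Fhl1, Nppa, Mybpc2 and Nppb. Acta1, skeletal alpha-actin, had 14.50, 14.40, 14.08 and 14.50 on AngII arrays and 13.40, 13.60, 13.72 and 14.19 on control arrays, a difference of 0.65 ± 0.15 (adjusted p = 0.0931, and 0.0504 with the block). AngII array 3 lay below control array 4, so the groups overlapped, and the difference was 0.95 over arrays 1 and 2 and 0.34 over arrays 3 and 4. Fhl1, a LIM protein that takes part in sensing strain in the sarcomere, had 13.67, 13.40, 13.74 and 13.35 on AngII arrays and 13.10, 13.07, 13.09 and 12.93 on control arrays, a difference of 0.49 ± 0.11 that passed with the block (adjusted p = 0.0436), with a further probe at 0.44. Mybpc2, fast skeletal myosin-binding protein C, averaged 9.71 on AngII arrays and 8.95 on control arrays (adjusted p = 0.0931).

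Promoter sequences are shown because several muscle genes, skeletal alpha-actin among them, are known targets of serum response factor, which binds the CArG box, and because these genes lay on the same side. Of the 6 genes on the higher side of the programme, 5 have an entry in the RefSeq promoter table of GRCm38.p6. A search of the 250 bases before the transcription start, on both strands, found a CArG box in 2 of them, Acta1 and Fhl1. The Acta1 window is chr8:123894776-123895025 on the minus strand, and its box begins 73 bases before the start. The Fhl1 window is chrX:56779433-56779682 on the plus strand, and its box begins 102 bases before the start, while a second Fhl1 entry had no match. Nppa, Nppb and Mybpc2 had no match in their windows, which says only that these letters are not in them. Over all 32851 entries, 1.47% hold a CArG box in such a window, a share of entries and not of genes. The other members of the programme were not looked at by themselves, so these counts do not test a link with AngII. Capitals mark the box, and a match is a description of sequence, not a site shown to be bound.
Acta1: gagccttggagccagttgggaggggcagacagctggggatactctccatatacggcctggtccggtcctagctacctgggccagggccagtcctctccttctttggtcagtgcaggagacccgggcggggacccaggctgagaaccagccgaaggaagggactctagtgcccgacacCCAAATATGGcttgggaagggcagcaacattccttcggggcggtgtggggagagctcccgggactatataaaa
Fhl1: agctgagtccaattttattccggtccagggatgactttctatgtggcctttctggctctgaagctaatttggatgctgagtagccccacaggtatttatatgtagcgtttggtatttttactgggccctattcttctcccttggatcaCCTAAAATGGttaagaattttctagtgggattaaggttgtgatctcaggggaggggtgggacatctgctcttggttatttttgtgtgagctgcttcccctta

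The natriuretic peptides, heart hormones that promote salt loss and oppose AngII, were bright in every ventricle. Nppa, atrial natriuretic peptide, had 14.60, 14.65, 14.68 and 14.80 on AngII arrays and 13.66, 14.10, 14.34 and 14.27 on control arrays, a difference of 0.59 ± 0.14 (adjusted p = 0.0931, and 0.0504 with the block). Nppb, the B-type peptide, had 14.57, 14.56, 14.87 and 14.75 on AngII arrays and 14.13, 14.25, 14.38 and 14.51 on control arrays, a difference of 0.37 ± 0.12 (adjusted p = 0.174). Neither peptide overlapped between groups. The part of atrial content in these values, control array 4 with its atrial markers included, was not tested.

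The myosin chains were less clear. Myh7, the slow fetal myosin, had 9.40, 8.55, 8.77 and 9.29 on AngII arrays and 8.41, 8.19, 8.06 and 7.80 on control arrays. The groups did not overlap, yet the difference of 0.89 ± 0.47 had an adjusted p of 0.411. Myh6, the adult fast myosin, averaged 14.37 on AngII arrays and 14.59 on control arrays (adjusted p = 0.376), and its further probe differed by 0.23, on the opposite side. Tnni1, slow skeletal troponin I, also on the list of the hypertrophy and fetal programme, was below background on all 4 AngII arrays and above it on 2 control arrays. Rcan1, the calcineurin-responsive inhibitor, averaged 12.73 on AngII arrays and 12.60 on control arrays (adjusted p = 0.794), with a further probe at 0.40.

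**Figure D3:**
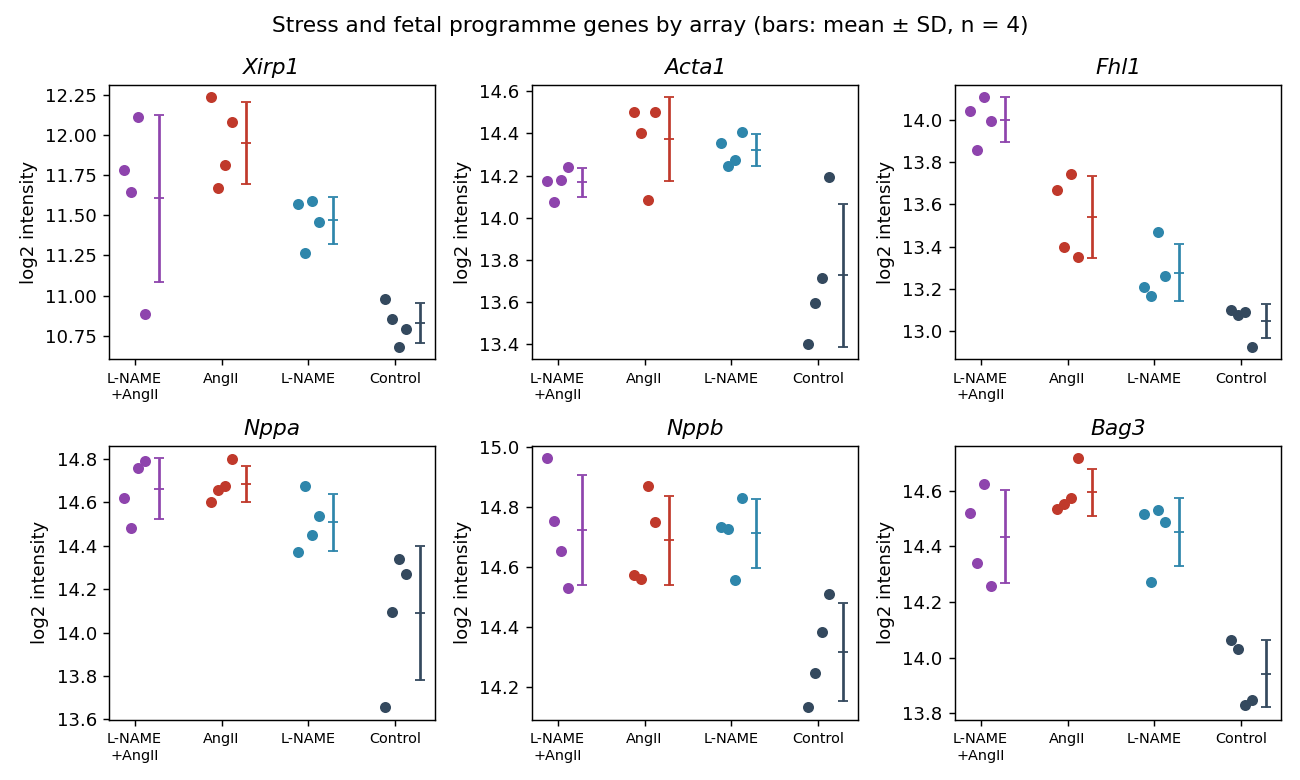
Log2 intensity (vertical axes) of Xirp1, Acta1, Fhl1, Nppa, Nppb and Bag3 on each array of the L-NAME+AngII, AngII, L-NAME and control groups; bars are mean ± SD, n = 4. AngII arrays lie above all control arrays for each gene but Acta1, where AngII array 3 at 14.08 lies below control array 4 at 14.19.

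Of 25 tested sarcomere genes 16 had a positive and 9 a negative difference, 6 were higher and 1 lower at an unadjusted p under 0.05 (28%), and the median was 0.17. Besides Myot and Acta1, the Z-disc crosslinker Actn2 had 14.58, 14.50, 14.80 and 14.72 on AngII arrays and 14.44, 14.30, 14.27 and 14.31 on control arrays, a difference of 0.32 ± 0.09 (adjusted p = 0.142). Tnni3, cardiac troponin I, was the gene on the lower side at that p, with 12.69, 12.76, 12.82 and 12.76 on AngII arrays and 13.07, 13.05, 13.11 and 13.11 on control arrays (adjusted p = 0.205). Tnni3 and Myh6 were the 2 sarcomere genes below control without overlap. Among 19 heat shock proteins 3 were higher, Bag3, Hspb7 and Dnajb5, and 1 was lower, the mitochondrial chaperonin Hspe1 (-0.39, adjusted p = 0.12). Hspb7, a small heat shock protein of heart muscle, had 13.90, 14.04, 14.26 and 14.19 on AngII arrays and 13.46, 13.48, 13.62 and 13.79 on control arrays and passed with the block (adjusted p = 0.043).

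Of 18 renin-angiotensin genes 7 passed the filter, and none of them reached an unadjusted p under 0.05 in limma's test. Agtr1a, the type 1 receptor, had 11.51, 11.60, 11.39 and 11.44 on AngII arrays and 11.40, 11.38, 11.37 and 11.14 on control arrays, a difference of 0.16 ± 0.11 (adjusted p = 0.535). Atp6ap2, the prorenin receptor, differed by 0.16 (adjusted p = 0.51) by its reported probe, and its further probes gave 0.54, 0.29 and 0.57. Agt, the precursor of AngII, was above background on 1 AngII array and no control array, and Ace, the converting enzyme, on none of either, so neither was tested. The Gq, calcineurin and MEF2 list had 1 of 29 tested genes at an unadjusted p under 0.05, Rgs5, which dampens Gq signals and is also a pericyte marker. Tbc1d10c, known as carabin, an inhibitor of calcineurin and Ras, had 10.39, 10.61, 10.16 and 10.95 on AngII arrays and 11.58, 11.50, 11.08 and 11.27 on control arrays, a difference of -0.83 without overlap (adjusted p = 0.0947, and 0.0436 with the block).

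In the nitric oxide and cGMP list 1 of 18 was higher at an unadjusted p under 0.05, Gucy1a1, a subunit of the nitric oxide receptor (0.40, adjusted p = 0.223, further probes at 0.54 and 0.27), and 1 lower, Ddah2 (-0.39, adjusted p = 0.291). Nos3, the endothelial synthase, averaged 9.97 on AngII arrays and 9.70 on control arrays (adjusted p = 0.361), with further probes at 0.59 and 0.49. In the endothelin and adrenergic list 1 of 7 was higher and 1 lower at that p (28.6%), and 1 was above and 2 were below control without overlap. Ece1, the endothelin-converting enzyme, differed by 0.55 (adjusted p = 0.107), with its further probe at -0.12. Arrb2, beta-arrestin 2, which uncouples receptors from G proteins, differed by -0.76 (adjusted p = 0.218), and Edn1, endothelin 1, by -0.24 (0.487).

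Of the genes that make or remove oxidants, Nox4, the oxidase whose product is hydrogen peroxide, had 7.74, 7.30, 9.47 and 6.99 on AngII arrays and 6.96, 7.20, 7.20 and 7.09 on control arrays. AngII arrays 1, 2 and 3 lay above the highest control array, array 3 by the most, and the difference of 0.76 had an adjusted p of 0.395. In the NADPH oxidase list 0 of 5 were higher and 2 lower at an unadjusted p under 0.05. These were the oxidase subunits Cyba and Ncf4, which differed by -0.40 and -0.66 (adjusted p 0.244 and 0.17). Of 26 antioxidant enzymes 1 was higher and 3 lower (15.4%, near the 14.4% of all genes), with a median of 0.07. The lower ones were Prdx4, a peroxiredoxin (-0.36, adjusted p = 0.162), Txn1, thioredoxin (-0.36, 0.208), and Gpx1, glutathione peroxidase 1 (-0.31, 0.238). Hmox1, haem oxygenase 1, the one on the higher side, had 10.35, 10.63, 10.76 and 10.75 on AngII arrays and 10.45, 8.90, 9.54 and 8.54 on control arrays, a difference of 1.26 ± 0.38 (adjusted p = 0.16). Control array 1 lay among the AngII arrays for Hmox1, and the other control arrays below them.

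Markers of contractile vessel cells were mostly on the higher side. Of 16 tested smooth muscle and pericyte markers 7 were higher and 0 lower at an unadjusted p under 0.05 (43.8%), with a median of 0.30. Their mean lay at 10.1 to 10.4 on AngII arrays and at 9.85 to 9.98 on control arrays, without overlap. Acta2, smooth muscle alpha-actin, had 13.83, 13.61, 13.65 and 13.46 on AngII arrays and 12.84, 12.83, 12.60 and 13.24 on control arrays, a difference of 0.76 ± 0.15 (adjusted p = 0.0652, and 0.0504 with the block). Its 3 further probes differed by 0.90, 0.94 and 1.01. Notch3, which keeps arterial smooth muscle mature, differed by 0.64, Mcam by 0.61 (further probes 0.30 and 0.43) and the receptor Pdgfrb by 0.73 (adjusted p 0.112 to 0.184). Among other markers of these cells Myocd differed by -0.03, with further probes at -0.32 and 0.29, Smtn by -0.11, with further probes at 0.04 and 0.07, and Des by 0.11.

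**Figure D4:**
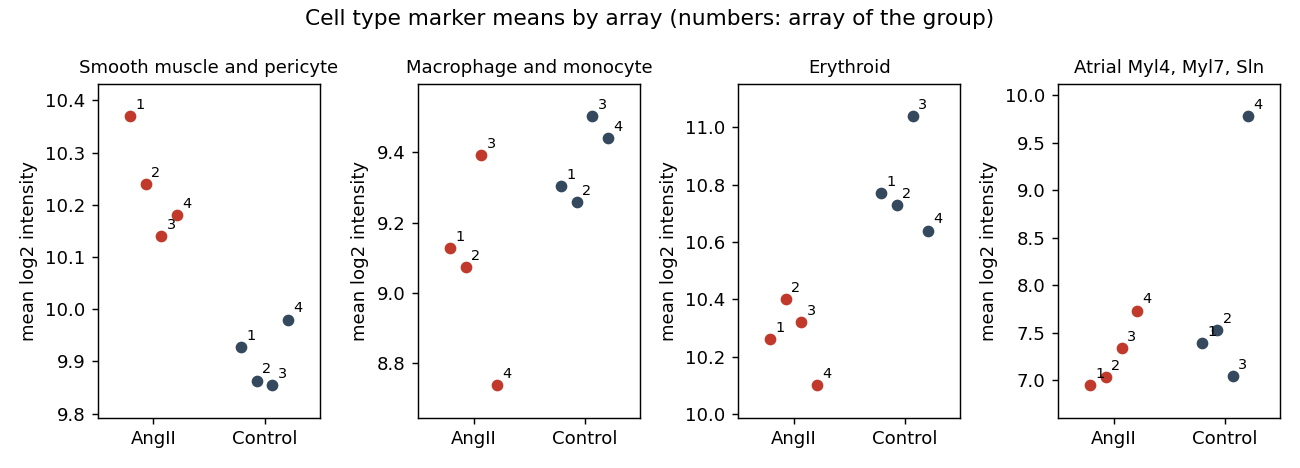
Mean log2 intensity (vertical axes) of smooth muscle and pericyte, macrophage and monocyte, erythroid, and atrial markers on each AngII and control array, numbered by array. Smooth muscle means are higher and erythroid means lower on every AngII array than on any control array, and the atrial mean of control array 4 is 9.78.

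Matrix genes lay on the higher side with no gene past the threshold. Of 46 tested, 13 were higher and 0 lower at an unadjusted p under 0.05 (28.3%), 36 had a positive difference, and the median was 0.23. Lox, the enzyme that crosslinks collagen and elastin, had 9.46, 9.30, 10.25 and 9.13 on AngII arrays and 9.01, 8.71, 8.91 and 8.59 on control arrays, a difference of 0.73 ± 0.23 (adjusted p = 0.17). Eln, elastin, had 9.42, 9.47, 9.62 and 9.38 on AngII arrays and 9.13, 9.12, 9.02 and 9.03 on control arrays, a difference of 0.40 ± 0.11 (adjusted p = 0.121). Neither gene overlapped, and AngII array 3 was the highest for both. Nid1, which joins laminin and collagen IV in basement membranes, differed by 0.62 (adjusted p = 0.165). Col4a1, Col4a2, Col18a1 and Lamc1, also of basement membranes, differed by 0.53, 0.88, 0.69 and 0.48 (adjusted p 0.205 to 0.276).

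Fibrillar collagen and scar genes were less even. Col1a1 had 8.997, 8.98, 8.66 and 8.34 on AngII arrays and 7.45, 8.03, 7.93 and 8.28 on control arrays, without overlap but with an adjusted p of 0.508 for a difference of 0.82 ± 0.52. Col3a1 averaged 9.60 on AngII arrays and 9.60 on control arrays. Postn, periostin, made by activated fibroblasts, was below background on all AngII and control arrays. Timp1, an inhibitor of matrix proteases, differed by 0.33 (adjusted p = 0.65, further probe 0.22) and Comp, a cartilage matrix protein, by 0.03 (0.985). Fibroblast markers had a median of 0.17, with 2 of 19 higher and 1 lower, and their mean spanned 9.57 to 10.2 on AngII arrays and 9.60 to 9.89 on control arrays. The part of fibroblast content in the matrix values was not tested.

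In the list of TGF-beta and Ccn factors 4 of 26 were higher and 1 lower at an unadjusted p under 0.05 (19.2%, against 14.4% of all genes). Ccn2, a secreted matrix-inducing factor, had 14.88, 14.87, 14.89 and 14.70 on AngII arrays and 14.56, 14.57, 14.27 and 14.23 on control arrays, a difference of 0.43 ± 0.11 (adjusted p = 0.118) without overlap. The receptors Tgfbr1 and Tgfbr2 differed by 0.42 and 0.43. A further Tgfbr1 probe gave -0.05 and a further Tgfbr2 probe 0.47. Id1, a target of bone morphogenetic protein signals, differed by -0.49 (adjusted p = 0.147). Angptl7, a secreted factor, had 9.04, 8.91, 11.28 and 8.96 on AngII arrays and 8.91, 8.23, 7.44 and 8.59 on control arrays, with AngII array 3 far above the other arrays and a difference of 1.25 (adjusted p = 0.311). That array was also the highest AngII array for Nox4, Lox, Mfap5, Timp1, Comp and Dkk3.

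Chemokine, interferon and macrophage lists lay on the lower side. Of 25 cytokines and chemokines 1 was higher and 6 lower at an unadjusted p under 0.05, with a median of -0.29. Ccl7, a chemokine that attracts monocytes, had 8.21, 7.65, 6.29 and 6.77 on AngII arrays and 8.90, 8.49, 10.16 and 9.06 on control arrays. It had the lowest difference of all genes tested, -1.92 ± 0.55 (adjusted p = 0.145), which was -0.77 over arrays 1 and 2 and -3.08 over arrays 3 and 4. For Ccl7, AngII arrays 3 and 4 were below background, and all control arrays were above it. The sizes of -1.92 and -3.08 therefore rest in part on levels that cannot be told from background. The chemokines Ccl11, Cxcl16 and Ccl12 differed by -0.46, -0.77 and -0.90 without overlap, and Ccl2 was below background on all AngII arrays and above it on 2 control arrays.

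Interferon-responsive genes had 0 of 34 higher and 7 lower at an unadjusted p under 0.05 (20.6%, against 14.4% of all genes). Of these 34, 28 were negative, and the median was -0.31. Gbp3, an interferon-induced GTPase, differed by -0.75 (adjusted p = 0.124, further probe -0.54), Cd274, the checkpoint ligand PD-L1, by -0.83 (0.164) and Psmb9, an immunoproteasome subunit, by -0.65 (0.165), each without overlap. The list median was -0.14 over arrays 1 and 2 and -0.43 over arrays 3 and 4.

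Among macrophage and monocyte markers 0 of 20 were higher and 4 lower (20%, against 14.4% of all genes). In this list 17 were negative, and the median was -0.33. That median was -0.18 over arrays 1 and 2 and -0.44 over arrays 3 and 4. Folr2, of resident macrophages, had 8.33, 8.05, 8.22 and 7.17 on AngII arrays and 8.81, 8.87, 8.89 and 8.54 on control arrays (difference -0.84, adjusted p = 0.155). C1qc, a complement chain, Ctss, cathepsin S, and Adgre1, the F4/80 antigen, differed by -0.43, -0.66 and -0.61 without overlap, and a further Adgre1 probe by -0.57. The mean of the list spanned 8.74 to 9.39 on AngII arrays and 9.26 to 9.50 on control arrays, with AngII array 3 among the controls. Of 26 lymphocyte and granulocyte markers on the array 5 passed the filter and none of those reached an unadjusted p under 0.05 in limma's test, and Cd3e of T cells was above background on no array. How far macrophage content moves with the chemokine and interferon values was not tested.

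Erythroid markers had a negative difference in all 6 tested genes, 1 of them at an unadjusted p under 0.05, with a median of -0.58. Their mean was 10.1 to 10.4 on AngII arrays and 10.6 to 11.04 on control arrays, without overlap. Hbb-bt, a beta-globin, had 12.001, 12.04, 12.004 and 12.18 on AngII arrays and 12.76, 12.56, 12.82 and 12.66 on control arrays, a difference of -0.65 ± 0.21 (adjusted p = 0.172). On L-NAME+AngII array 4 the erythroid mean was 12.1, above every other array.

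Acute-phase and complement genes lay on the higher side. Of 12 tested, 5 were higher and 0 lower at an unadjusted p under 0.05 (41.7%), with a median of 0.32. Lcn2, lipocalin 2, which binds bacterial siderophores and is also a mineralocorticoid target, had 8.98, 8.33, 9.17 and 9.38 on AngII arrays and 7.87, 7.70, 7.61 and 6.97 on control arrays. Its difference of 1.43 ± 0.38, a 2.69-fold higher level, was the highest of all genes tested (adjusted p = 0.121). Lbp, which presents endotoxin to CD14, had 8.02, 8.09, 7.99 and 7.71 on AngII arrays and 7.59, 7.22, 6.997 and 6.76 on control arrays, a difference of 0.81 ± 0.22 that passed with the block (adjusted p = 0.043). Lbp was above background on only 2 control arrays, and Lcn2 was below it on control array 4. Both sizes therefore rest in part on levels that cannot be told from background.

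Glucocorticoid and mineralocorticoid targets had 9 of 21 higher and 1 lower at an unadjusted p under 0.05 (47.6%), with a median of 0.32. Fkbp5, a co-chaperone of the steroid receptors, had 10.26, 9.86, 10.83 and 10.76 on AngII arrays and 9.45, 9.52, 9.39 and 8.58 on control arrays, a difference of 1.19 ± 0.32 (adjusted p = 0.121). Cdkn1a, the cell-cycle inhibitor p21, had 12.54, 12.59, 13.46 and 13.07 on AngII arrays and 12.18, 12.05, 11.66 and 11.56 on control arrays, a difference of 1.05 ± 0.26 (adjusted p = 0.105) with further probes at 1.09 and 1.12. Neither gene overlapped between groups. Errfi1, which restrains EGF receptors, differed by 0.64 and passed with the block (adjusted p = 0.0459). The glucocorticoid receptor itself, Nr3c1, differed by -0.54 (adjusted p = 0.243).

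The steroid-responsive difference was uneven across the arrays. Its list median was 0.12 over arrays 1 and 2 and 0.59 over arrays 3 and 4, and 0.23 without control array 4, which had the lowest Fkbp5. Per1, a clock gene that glucocorticoids also drive, differed by 0.69 (adjusted p = 0.136), 0.46 over arrays 1 and 2 and 0.92 over arrays 3 and 4, with a further probe at 0.66. Cry2, another clock gene, had 8.87, 8.93, 8.97 and 10.07 on AngII arrays and 8.55, 8.71, 8.78 and 8.09 on control arrays (adjusted p = 0.213), with AngII array 4 far above the rest. In the clock list 2 of 15 were higher and 0 lower at an unadjusted p under 0.05, a share of 13.3% near the 14.4% of all genes. The hour at which hearts were taken is not given in the labels. Of 19 immediate early genes 2 were higher at that p (10.5%), Zfp36 by 0.78 and Atf3 by 0.97, both with overlap between groups. The transcription factors Klf2 and Klf4 did not overlap between groups and differed by 0.40 (adjusted p = 0.402) and 0.28 (0.519), but further Klf4 probes gave -0.03 and 0.04.

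**Figure D5:**
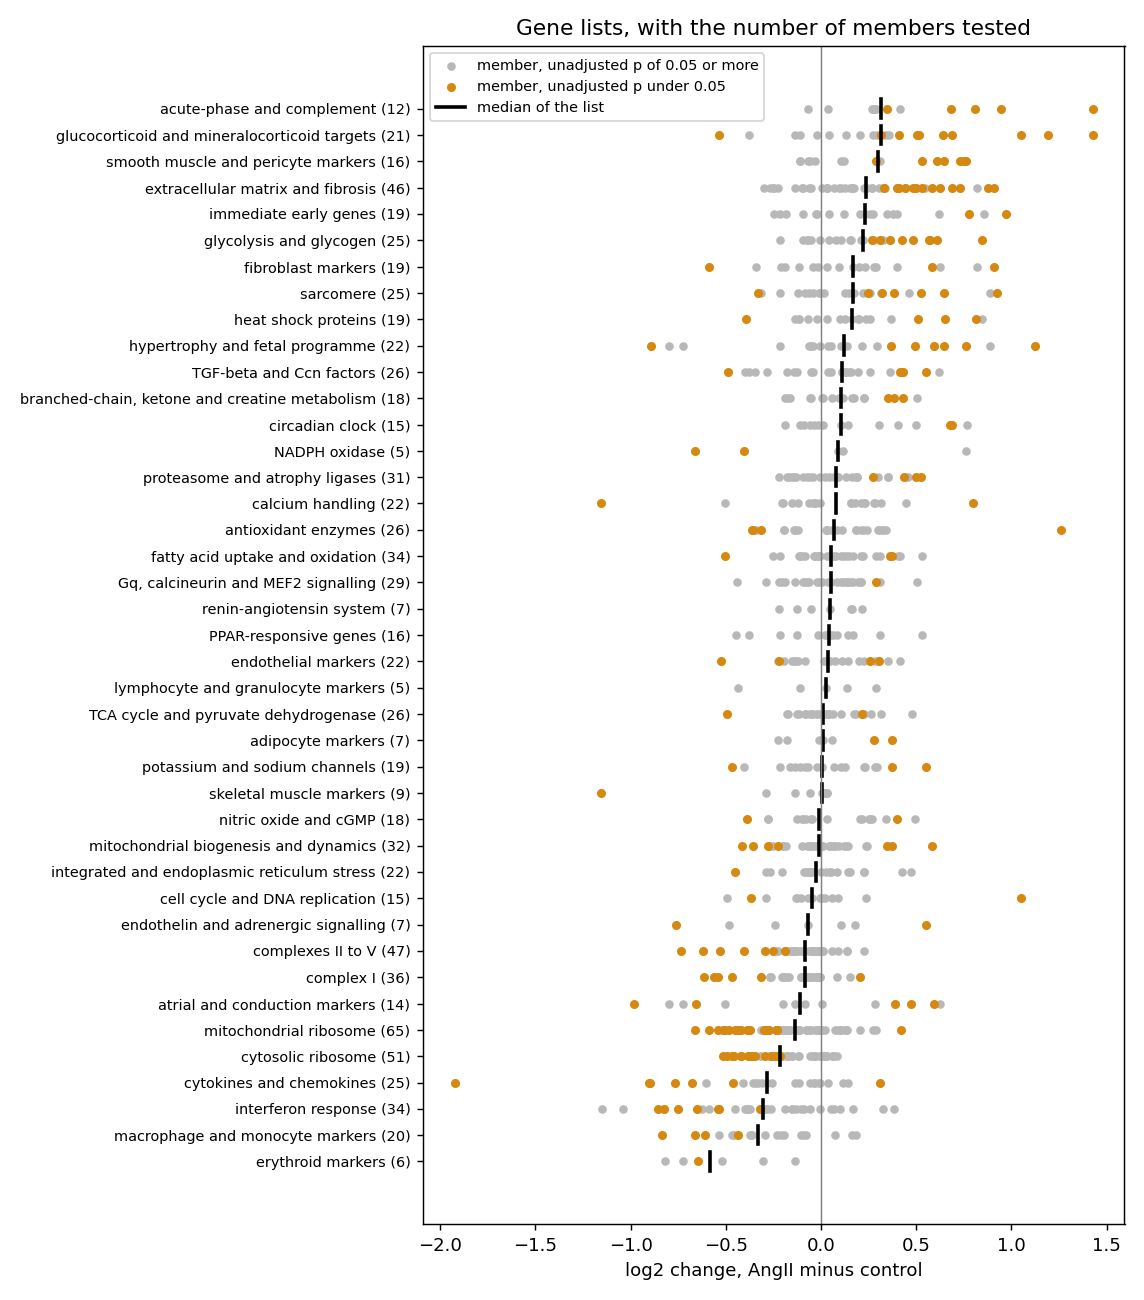
Log2 difference of AngII minus control (horizontal axis) for every tested member of the gene lists with at least 5 tested members (vertical axis, number tested in brackets), ordered by list median (black bar); orange members have an unadjusted p under 0.05. Medians run from 0.32 for the acute-phase and the steroid-target lists to -0.58 for erythroid markers.

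Most ribosomal protein genes had small negative differences. Of 65 genes of the mitochondrial ribosome 1 was higher and 18 lower at an unadjusted p under 0.05 (29.2%), 50 were negative, and the median was -0.14. Of 51 genes of the cytosolic ribosome 0 were higher and 16 lower (31.4%), 43 were negative, and the median was -0.22. Mrps28 had 11.78, 11.85, 11.92 and 11.86 on AngII arrays and 12.30, 12.20, 12.29 and 12.42 on control arrays. Rpl12, of the cytosolic large subunit, had 13.36, 13.14, 13.46 and 13.40 on AngII arrays and 13.69, 13.76, 13.94 and 13.94 on control arrays. In both genes every AngII array was below every control array. Mrps28, Mrpl52 and Mrps10 passed with the block, with a further Mrps10 probe at -0.38, and no cytosolic ribosomal protein did. The median of the mitochondrial list was -0.13 over arrays 1 and 2 and -0.13 over arrays 3 and 4, and that of the cytosolic list -0.19 and -0.18.

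Respiratory chain subunits had mostly small negative differences. In complex I 33 of 36 genes were negative, with a median of -0.09, and 1 was higher and 5 lower at an unadjusted p under 0.05 (16.7%, near the 14.4% of all genes). In complexes II to V 39 of 47 were negative, with a median of -0.08, and 0 were higher and 7 lower (14.9%). Atp5e, the epsilon subunit of ATP synthase, had 10.98, 10.99, 11.16 and 11.11 on AngII arrays and 11.56, 11.47, 11.81 and 11.89 on control arrays, a difference of -0.62 ± 0.14 that passed with the block (adjusted p = 0.0436). Ndufab1, the mitochondrial acyl carrier protein, and Ndufb2, both of complex I, differed by -0.56 and -0.54 without overlap.

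Regulators of mitochondria showed no common direction, with 3 of 32 higher and 4 lower. Tfam, which packs and transcribes mitochondrial DNA, differed by -0.36 (adjusted p = 0.203, further probe -0.37), the nuclear receptor Esrra by -0.28 (0.243), the deacetylase Sirt3 by -0.23 (0.232) and Sirt1 by 0.37 (0.218). Ppargc1a, the coactivator of mitochondrial genes, averaged 11.36 on AngII arrays and 11.42 on control arrays (adjusted p = 0.867).

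Genes of glucose use were on the higher side. Of 25 glycolysis and glycogen genes 9 were higher and 0 lower at an unadjusted p under 0.05 (36%), with a median of 0.22. Pfkl, Pfkp and Pfkm, the phosphofructokinases that commit glucose to glycolysis, differed by 0.36, 0.57 and 0.31, and the hexokinases Hk2 and Hk1 by 0.27 and 0.48, with adjusted p from 0.181 to 0.224. Further probes gave 0.34 for Pfkl, 0.75 for Pfkp, and 0.26 and 0.39 for Pfkm. Ugp2, which makes UDP-glucose for glycogen, had 12.35, 12.63, 12.60 and 12.27 on AngII arrays and 11.77, 12.01, 11.88 and 11.90 on control arrays, a difference of 0.57 ± 0.17 (adjusted p = 0.155). The probe read for Pgk1, phosphoglycerate kinase, was dim, above background on all AngII arrays and on none of the control arrays. It was at least 1.51-fold higher and passed with the block (adjusted p = 0.0436).

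Of 34 genes of fatty acid uptake and oxidation 2 were higher and 1 lower at an unadjusted p under 0.05 (8.82%, against 14.4% of all genes), with a median of 0.05. Cpt1b, the gate for fatty acids into mitochondria, averaged 14.17 on AngII arrays and 13.88 on control arrays (adjusted p = 0.412), a difference of 0.29 with a further probe at 0.14. Pdk4, which blocks pyruvate oxidation, averaged 14.76 on AngII arrays and 14.71 on control arrays (0.981). Slc6a8, the creatine transporter, differed by 0.39 (adjusted p = 0.111), and Bdh1 and Oxct1, enzymes of ketone use, by 0.43 (0.165) and 0.35 (0.188), all without overlap. The citric acid cycle list had 1 of 26 higher and 1 lower, with a median of 0.01.

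Calcium handling had 1 of 22 genes higher, Ryr2, the calcium release channel (0.80, adjusted p = 0.188), and 1 lower, the dim Pvalb. Atp2a2, the calcium pump SERCA2a, averaged 14.41 on AngII arrays and 14.44 on control arrays (adjusted p = 0.925), with a further probe at -0.10. Ano10, an anoctamin, had 10.40, 10.77, 10.10 and 10.32 on AngII arrays and 11.68, 11.53, 11.10 and 11.51 on control arrays, a difference of -1.06 ± 0.23 that passed with the block (adjusted p = 0.0466).

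Whether the genes of AngII alone stood at the same level under the combined treatment was tested directly. L-NAME+AngII mice also drank 1% NaCl, and the labels do not say whether AngII mice did. A difference between these groups can therefore not be credited to L-NAME apart from salt. Between L-NAME+AngII and AngII 67 genes passed at an adjusted p under 0.05 (0.735%), 39 higher (0.428%) and 28 lower (0.307%) in L-NAME+AngII, with 1415 at an unadjusted p under 0.05 (15.5%). The count was 3 in a fit of only these 8 arrays and 3 with the atrial marker mean as a covariate. It was 22, 20 and 21 without AngII arrays 1, 2 and 4, and 40 and 119 without L-NAME+AngII arrays 1 and 4. The atrial markers averaged 9.17, 8.12, 10.55 and 7.81 on L-NAME+AngII arrays and 6.94 to 7.73 on AngII arrays, and their part in these values was not tested. This comparison shares the AngII arrays with that against control, so the values are given side by side. Of the 20 leading genes 2 passed. Uck2 averaged 13.52 in L-NAME+AngII, 13.002 in AngII and 12.45 in control, with a difference of 0.51 between L-NAME+AngII and AngII (adjusted p = 0.0219). Slc41a3 averaged 10.19 in L-NAME+AngII, 10.71 in AngII and 10.16 in control, with a difference of -0.52 (0.0267).

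Of 46 matrix genes 5 were higher and 0 lower in L-NAME+AngII than in AngII at an adjusted p under 0.05 (10.9%, against 0.735% of all genes), Comp, Mfap5, Timp1, Lox and Eln. This list was chosen with earlier results of these data known, so its share is a description and no test of the list. Fibroblast markers averaged 10.47, 10.51, 10.51 and 9.73 on L-NAME+AngII arrays 1 to 4 and 9.57 to 10.2 on AngII arrays, and their part in these values was not tested. Nox4 differed by 2.15 between L-NAME+AngII and AngII (adjusted p = 0.0219), Dkk3 by 2.16 (0.0126), Comp by 1.92 (0.0321), Mfap5 by 1.57 (0.0126), Timp1 by 1.51 (0.0267), Lox by 1.45 (0.0126) and Eln by 0.50 (0.0394). All 7 were higher in L-NAME+AngII, and Nox4 was below background on AngII array 4. Mfap5 and Dkk3 are themselves on the fibroblast marker list, and Dkk3 on the atrial one. Ano10 averaged 9.10 in L-NAME+AngII, 10.40 in AngII and 11.45 in control, a difference of -1.29 in the direct test (0.0209). Tbc1d10c averaged 9.32 in L-NAME+AngII, 10.53 in AngII and 11.36 in control, a difference of -1.21 (0.0126). Both were lower in L-NAME+AngII than in AngII.

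Between AngII and L-NAME with salt, no gene passed (0 of 9118, 0%). The smallest limma adjusted p was 0.9995, and 219 genes (2.4%) had an unadjusted p under 0.05. Xirp1 averaged 11.95 on AngII arrays and 11.47 on L-NAME arrays, Bag3 14.59 on AngII arrays and 14.45 on L-NAME arrays, and Nppb 14.69 on AngII arrays and 14.71 on L-NAME arrays. A p that misses the threshold does not show that the treatments act alike. The test of whether the AngII difference was the same with and without L-NAME called no gene (0 of 9118, smallest limma adjusted p 0.0548), with 1493 at an unadjusted p under 0.05 (16.4%).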

How the data were processed

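RNA from left ventricles was measured on 16 Illumina BeadChip arrays, 4 in each of 4 groups taken from the sample titles. The authors deposited 1 table of log2 intensities, made with GenomeStudio and lumi per the submitters' processing notes; the steps from scan to log2 value, background handling included, are not stated. All columns of the deposited log2 table had the same sorted values to within 0.00132, so the arrays had been made equal in distribution, and only relative levels can be compared. No counts lie behind these values, and the number of arrays limits the precision. A second table with 64 columns of per-sample values that were not mapped to samples was not used.

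Probes were named from the platform annotation (23978 of 25697 with 1 symbol, 0 with several, 1719 with none). Background was the 95th percentile of 1360 chemosensory receptor probes, a log2 level of 7.13, and the 13018 probes that exceeded it on 4 or more arrays entered. For each of 9118 genes the probe with the highest mean was used; 2276 genes had further probes that passed the same filter, and their differences are given beside the named gene they belong to. A linear model of all 4 groups was fitted with limma 3.58.1 in R 4.3.3 (moderated test on 12 residual degrees of freedom, two-sided), and every adjusted p is limma's, after Benjamini and Hochberg over 9118 genes. The script was tested on simulated data. "At least" folds set a group that was below background on all its arrays to the background level.

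Replicate numbers come from the sample titles. Deviations from the group means correlated in every same-numbered pair of arrays (0.115 to 0.452, 24 pairs, median 0.281). Arrays 1 with 2, and 3 with 4, of different groups correlated almost as well (0.111 to 0.385, median 0.232). Arrays 1 and 2 set against 3 and 4 gave -0.258 at the median. Deviations sum to 0 within each group, which by itself pulls some correlations below 0. These values do not settle whether samples were paired by number or fell into arrays 1 and 2 against 3 and 4. The block by number, and that split as a covariate, were fitted as alternatives.

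Genes were named by a rule: the 10 leading genes in each direction whose groups do not overlap, up to 4 genes of smallest p in each of 42 lists, and a fixed set. Genes and lists were chosen with earlier results of these data known. Outside the rule, and chosen after their values were seen, are Irs2, Tmem43, Hbegf, Mybpc2, Tnni1, Pdgfrb, Myocd, Smtn, Des, Col4a1, Col4a2, Col18a1, Lamc1, Ccl12, Nr3c1, Mrps10, Klf4, Pfkm, Hk1 and Hk2. Promoters are from RefSeq, GRCm38.p6. Alternatives covered filters, probes, variance models, array weights, the block, normalization, an atrial covariate, the arrays in the fit and leaving out each array.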

Additional observations from a re-analysis of the deposited data

Results flagged for a closer look

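In each group of 4 arrays, the highest or lowest array of a gene named above was set against Dixon's 95% critical value for the gap over the range. Of 260 groups, over 130 genes, 19 exceeded it, and chance gives about 1 in 20. Values are log2 levels, and causes were not tested.

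AngII array 4 stood apart in 8 genes. It was the highest of its group for Tmem43 (11.36), Per1 (11.38), Cry2 (10.07), Ndufb2 (12.65) and Pdk4 (14.89), and the lowest for Ccn2 (14.7), Edn1 (8.813) and Gpx1 (13.05). AngII array 3 was the highest for Dnajb5 (8.349) and Angptl7 (11.28) and the lowest for Myocd (9.75). AngII array 2 was the highest for Tnni1 (6.414), below background like the rest of its group, and the lowest for Sirt3 (12.06). AngII array 1 was the lowest for Pfkm (14.52).

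Among control arrays, array 4, which carried atrial markers, was the lowest for Fhl1 (12.93), Agtr1a (11.14) and Fkbp5 (8.584). Control array 3 was the highest for Adgre1 (10.69) and the lowest for Col18a1 (9.278).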

How the results depend on the processing

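For AngII against control the count of genes at a limma adjusted p under 0.05 was 0 with probes above background on at least 1 array, with every probe tested by itself, with a fold of at least 1.5 required, with cyclic loess, and in the fit of 8 arrays. It was 19 with probes above background on at least 8 arrays, 7 with no filter, 138 with a trended and robust variance, 177 with array weights, 49 with replicate numbers 1 and 2 against 3 and 4 as a covariate, 17 with median centring and 13 with the atrial marker mean as a covariate. At an adjusted p under 0.10, chosen after seeing the data, it was 75. Leaving out 1 array gave 0 to 137, the highest without L-NAME+AngII array 4. With the replicate block it was 56. Leaving out 1 array under the block, also added after seeing the data, gave 0 without any 1 control array, AngII array 1 or 2, or L-NAME+AngII array 1. It gave 5, 8, 9 and 10 without L-NAME arrays 1 to 4, 1 and 2 without AngII arrays 3 and 4, and 6, 27 and 289 without L-NAME+AngII arrays 2, 3 and 4. Of the genes called by the block, the covariate of replicate numbers, the trended variance, the array weights and without L-NAME+AngII array 4, 28 were called in all 5 settings (16 higher, 12 lower with AngII) and 248 in at least 1.

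For L-NAME+AngII against AngII the count of 67 was 168 with a trended and robust variance, 293 with array weights, 172 with the replicate block, 178 with the covariate of replicate numbers, 3 in the fit of 8 arrays, 0 in that fit with the block, 3 with the atrial covariate and 238 at an adjusted p under 0.10. It was 20 to 119 with 1 array left out. For AngII against L-NAME it was 0 in each setting run. The causes of these shifts were not tested. Of 130 named genes, the difference changed sign in some setting for 7 whose size was at most 0.11, none of them past the threshold: Myocd, Smtn, Col3a1, Comp, Ppargc1a, Pdk4 and Atp2a2. Comp, at 0.03, spanned -0.21 without AngII array 3 to 0.36. The median changed sign for 14 of 42 lists, each at most 0.11 in size.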
